A study of Mus musculus with 4 samples.

Results

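The genes of cholesterol and lipid synthesis were followed through 4 RNA sequencing libraries of mouse shoulder capsule cells labelled as fibroblasts. A list of 30 gene symbols, whose rule sets no limit on measured values but which was drawn up with earlier results of these data known, defined the group. All 30 were found among the 16416 genes of the deposited expression table. By role, 8 act in the mevalonate steps, 11 from the making of squalene to cholesterol, 5 regulate the pathway, and 6 belong to SREBP-driven lipid synthesis and transport. The cells, labelled as synovial fibroblasts, had grown out of the shoulder joint capsule 1 week after immobilization, and they were used at passage 2. Macrophage markers were abundant in them too, as given below. The wild-type library came from C57BL6/J mice and the 3 other libraries from miR-26a -/- mice. Of these knockout libraries, 1 was untransfected, 1 was transfected with 10 nM of the Silencer Negative Control and 1 with 10 nM of a miR-26a mimic, both for 24 hours by the protocol. Every group had 1 library and all cells came from immobilized shoulders. No difference therefore has a replicate check and no p-value is given. The labels do not state ages, how many animals a culture came from or how miR-26a was deleted.

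Animal cells build cholesterol from acetyl-CoA, first through mevalonate to farnesyl diphosphate and then, after squalene is formed, through a series of sterol intermediates. SREBP transcription factors switch on most of these enzymes when sterols in the endoplasmic reticulum run low. The escort protein SCAP carries the SREBP precursors to the Golgi for cleavage, and the INSIG proteins hold SCAP back when sterols are plentiful. Fibroblasts, macrophages and dividing cells all run this pathway for their membranes. MicroRNAs such as miR-26a pair through their seed, the bases near the 5′ end, with matching letters in the untranslated end of a transcript (its 3′ UTR).

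The mimic is printed because its seed sets the sites searched in the members. Its guide strand, as the labels give it, has the seed (bases 2 to 8) in capitals and is identical to mature miR-26a-5p in RefSeq (GRCm38.p6), which is encoded at chr9:119031811-119031832 and chr10:126995543-126995564.
Mimic guide strand: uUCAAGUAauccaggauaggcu

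The 7 bases TACTTGA, which pair with that seed, occur in a 3′ UTR of 4 of the 30 members (13.3%) and of 12.2% of the 15822 table genes that have a 3′ UTR in GENCODE M21 (GRCm38). The 4 are Acat2, Acsl3, Lpin1 and Stard4. In the first 3 genes the match is followed by A, the longer 8-base form TACTTGAA. Acat2 and Acsl3 hold it in all 3 of their annotated transcripts with a 3′ UTR, Lpin1 in 1 of 5, and Stard4 holds the 7-base form in 1 of 3. These windows show the match in capitals with its surroundings, because Acat2 and Acsl3 had the lowest mimic to negative-control ratios of all members. The matches lie at chr17:12943459-12943465 on the minus strand for Acat2, chr1:78706465-78706471 on the plus strand for Acsl3 and chr12:16535860-16535866 on the minus strand for Lpin1.
Acat2: tgcctcctgaaTACTTGAattaaaggcat
Acsl3: aaataggaaaaTACTTGAaatgtatgtct
Lpin1: acttagttattTACTTGAagggggaaaaa

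All 30 members were well covered. Estimated counts ranged from 200 for Pmvk in the mimic library to 27802.03 for Scd2 in the wild-type library, and totals ran from 17598763 to 19392655 per library. Every log2 ratio below compares TMM-scaled counts and is followed in parentheses by its exact 95% binomial counting interval, which holds no error but that of counting and treats every read as its own molecule. Levels are given in TPM, which corrects for gene length. A member was called lower or higher when the higher of the 2 scaled levels exceeded the lower by at least 25% and the interval excluded 0, and the stricter limit was 2-fold.

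Among the cells' markers, 12 fibroblast genes summed to 20880 TPM in the wild-type library and to between 9452 and 10960 TPM in the knockout libraries. The 13 macrophage genes summed to 23520 TPM and to between 33320 and 34570 TPM, and no gene of either list was at 0 in any library, so the cultures labelled as fibroblasts also held abundant macrophage RNA. The 10 proliferation genes summed to 132.7 TPM in the wild-type library and to between 283.5 and 325.6 TPM in the others, and 8 Schwann cell genes to 641.2 and to between 432.4 and 454.7 TPM. Of the adipocyte list 8 genes were in the table and summed to 306.7 TPM, against 88.79 to 98.79 TPM in the knockout libraries, where 2 or 3 of them were at 0. In bulk RNA, fewer cells of a type and less RNA per cell cannot be told apart. The knockout labels could not be checked on miR-26a itself, which these tables do not measure.

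On TMM-scaled counts 22 of the 30 members were highest in the wild-type library, as were 37.8% of 12876 measured genes, and 22 were lowest in the mimic library, as were 19.8%. On TPM, which lies lower for most genes in the knockout than in the wild-type library, 28 members were highest in the wild type, beside 46.9% of genes. The summed level of all members was 3083 TPM in the wild-type, 2455 TPM in the knockout, 2480 TPM in the negative-control and 2184 TPM in the mimic library. The mevalonate steps summed to 756.0, 625.4, 615.1 and 476.1 TPM in that order, and the steps from squalene to cholesterol to 967.2, 836.0, 800.1 and 686.4 TPM. The 5 regulators differed less, with 387.8, 334.1, 342.0 and 337.9 TPM. SREBP-driven lipid genes stood at 972.1, 659.8, 722.7 and 683.5 TPM, a sum carried by Scd2. The other 5 lipid genes summed to 366.4, 295.2, 314.2 and 269.6 TPM, with the mimic library lowest here too.

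**Figure D1:**
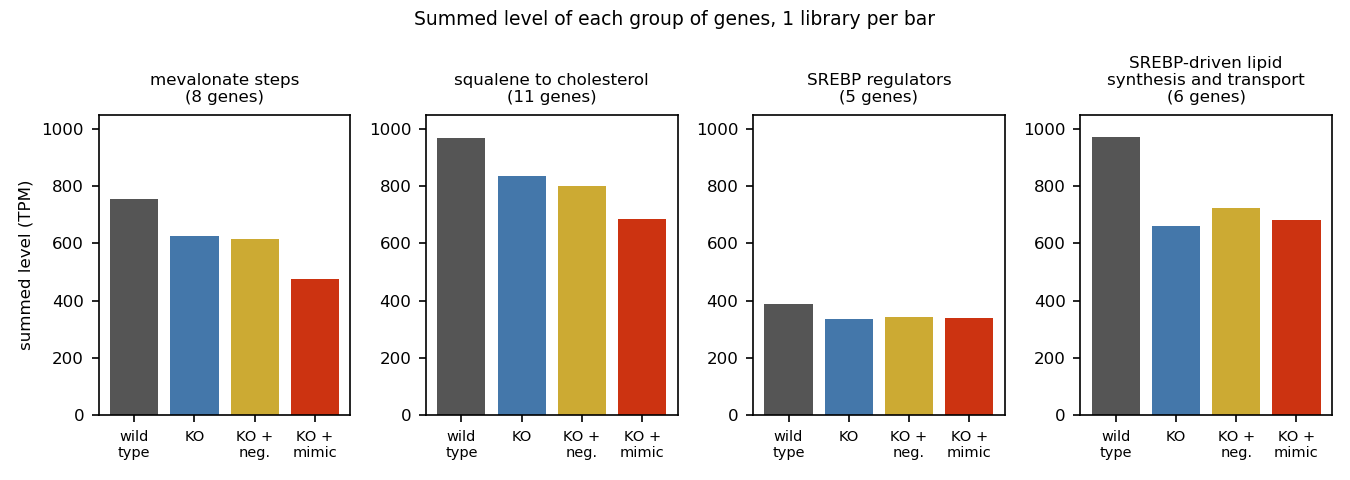
Bars give the summed level (TPM) of the genes of each role in 1 library each (wild type, knockout, knockout with negative control, knockout with mimic). In both groups of sterol enzymes the mimic library is the lowest, at 476.1 and 686.4 TPM, while the regulators lie between 334.1 and 387.8 TPM.

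The genotype comparison, knockout against wild type, asked how cells without miR-26a differ. The members lay slightly lower in the knockout library, with 23 below 0 and 7 above and a median log2 ratio of -0.14, beside 0.01 over 12803 measured genes. Of the members 5 were called lower, where 20.9% of all measured genes were, and 0 were called higher, where 20.7% were. At 2-fold 0 members were called, against 12.9% of all genes in either direction. The share of members called lower, 5 of 30, is near that background. In the same 2 libraries the median of the macrophage markers was 1.06, that of the fibroblast markers -0.99, that of the proliferation genes 1.51 and that of the measured adipocyte genes -2.59. Their part in the members' ratios was not tested.

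Lpin1 and Scd2, both lipid genes, had the largest ratios between the genotypes. Lpin1 (Entrez Gene 14245, chr12:16535669-16653903), a phosphatidate phosphatase of triglyceride synthesis, had 23.68 TPM in the wild-type library against 12.12, 13.18 and 10.52 TPM in the knockout, negative-control and mimic libraries. The wild-type library stood alone, and the knockout to wild-type ratio was -0.84 (-0.99 to -0.70). Scd2 (20250, chr19:44293676-44306864), a desaturase that makes monounsaturated fatty acids and the most abundant member, had 605.67 TPM in the wild-type, 364.59 TPM in the knockout, 408.50 TPM in the negative-control and 413.98 TPM in the mimic library, a genotype ratio of -0.60 (-0.63 to -0.58). Its paralog Scd1, which can share reads with it, stood at 157.75 TPM without and 84.96 TPM with the deletion, at a ratio of -0.76 (-0.82 to -0.71). Both desaturases were thus lower in the knockout library. The 6 measured adipocyte genes were below 0 there as well, from -6.67 to -0.27, with 4 called lower, and their part was not tested.

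Fasn (14104), the fatty acid synthase, had 91.47 TPM in the wild-type, 70.50 TPM in the knockout, 84.35 TPM in the negative-control and 74.36 TPM in the mimic library. Its genotype ratio of -0.25 (-0.30 to -0.20) did not reach the 25% limit. Acly, which makes cytosolic acetyl-CoA from citrate, had a ratio of -0.14 (-0.19 to -0.09). Stard4, a carrier that moves sterols between membranes, was the member with the highest genotype ratio, 0.30 (0.19 to 0.41). Its level was 26.93 TPM in the wild-type, 30.31 TPM in the knockout, 27.80 TPM in the negative-control and 25.10 TPM in the mimic library, and it is also a member with a seed match.

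Among the sterol enzymes Hmgcs1, Lss and Tm7sf2 were called lower in the knockout library. Hmgcs1 (208715, chr13:119690351-119708260), the synthase that makes HMG-CoA, had 174.17 TPM in the wild-type, 121.63 TPM in the knockout, 135.79 TPM in the negative-control and 107.38 TPM in the mimic library, with a genotype ratio of -0.39 (-0.45 to -0.33). Lss (16987), which closes squalene epoxide into lanosterol, had 62.65, 47.58, 41.29 and 35.00 TPM in the same order and a ratio of -0.37 (-0.47 to -0.27). Tm7sf2 (73166, chr19:6062821-6067850), a sterol reductase, had 47.16, 32.08, 27.24 and 19.41 TPM and a ratio of -0.42 (-0.61 to -0.23). All 3 enzymes were highest in the wild-type and lowest in the mimic library. Mvk, the mevalonate kinase, and Nsdhl, a sterol dehydrogenase, had genotype ratios of -0.31 (-0.46 to -0.16) and -0.28 (-0.40 to -0.17).

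None of the remaining enzymes was called between the genotypes. Intervals below 0 were those of Mvd at -0.19 (-0.32 to -0.06), Sqle at -0.18 (-0.26 to -0.10) and Cyp51 at -0.17 (-0.24 to -0.10). The same held for Idi1 at -0.14 (-0.24 to -0.03) and Sc5d at -0.14 (-0.21 to -0.06). The intervals of Acat2, Pmvk, Fdps and Ggps1 in the mevalonate steps, and of Fdft1, Hsd17b7, Ebp and Dhcr7 in the later steps, held 0. Msmo1, a sterol methyl oxidase with the most abundant transcript of the later steps, was slightly above 0 at 0.10 (0.03 to 0.17). It had 213.52 TPM in the wild-type, 208.65 TPM in the knockout, 213.20 TPM in the negative-control and 169.57 TPM in the mimic library. Under the scalings tried the genotype ratios of Msmo1, Hsd17b7, Ebp, Acat2, Insig2 and Ggps1 took both signs. On deposited TPM the median of all genes was -0.11 in this comparison and that of the members -0.26, a distance of -0.15, as in TMM-scaled counts.

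The negative-control library was set against the untransfected knockout library to describe transfection without the mimic. Here the members stayed close to 0, with 22 below and 8 above, where 49.4% of all genes were below. On plain total counts and on deposited TPM 18 members were below 0 and 12 above. The median was -0.05 beside 0.0021 over 12532 genes. Of the members 1 was called lower, against 6.83% of all genes, and 0 were called higher, against 3.56%. At 2-fold 0 were called, against 1.01%. The called member was Sc5d (235293), a sterol desaturase, with 110.61 TPM in the wild-type, 100.59 TPM in the knockout, 86.47 TPM in the negative-control and 89.33 TPM in the mimic library, a ratio of -0.36 (-0.44 to -0.28). Fasn and Srebf1, the gene of the lipogenic SREBP, had the largest positive ratios, 0.23 (0.18 to 0.28) and 0.23 (0.14 to 0.31). Tm7sf2 stood at -0.28 (-0.49 to -0.07). Hsd17b7, a sterol reductase of the later steps, had 36.46, 33.72, 29.58 and 27.57 TPM in the wild-type, knockout, negative-control and mimic libraries and a ratio of -0.23 (-0.34 to -0.12). Of 19 sterol enzymes 16 were below 0, with a median of -0.09.

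The mimic comparison, mimic against negative control, asked which genes differ when miR-26a is supplied to knockout cells. Of 19 sterol enzymes 8 were called lower in the mimic library, and of 5 regulators 0 were. All 8 genes of the mevalonate steps and 9 of 11 genes of the later steps were below 0, with medians of -0.32 and -0.20, beside -0.01 over 12512 measured genes. Of all 30 members 9 were called lower, where 5.6% of measured genes were, and 0 were called higher, where 7.38% were. At 2-fold 0 members were called, against 1.21% of all genes. The proliferation genes had a median of -0.24 in these libraries and the macrophage markers one of -0.04, and their part in the result was not tested.

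Acat2 (110460, chr17:12943042-12960725), a cytosolic thiolase that joins 2 acetyl-CoA units at the entry of the pathway, had 68.48 TPM in the wild-type, 64.81 TPM in the knockout, 58.58 TPM in the negative-control and 36.66 TPM in the mimic library. Only the mimic library stood apart, at 1.61-fold below the negative control, a ratio of -0.68 (-0.82 to -0.54). Acat2 is a gene whose estimated counts have decimals, so reads may have been shared with other genes, though the counting tool is not stated. Its close copy Acat3 had between 0.96 and 1.00 TPM in every library, and the neighbouring Tcp1 had a mimic to negative-control ratio of -0.02 (-0.07 to 0.04).

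Acsl3 (74205, chr1:78657825-78707743), which activates long-chain fatty acids, had 37.61 TPM in the wild-type, 27.26 TPM in the knockout, 32.18 TPM in the negative-control and 18.46 TPM in the mimic library. Its ratio was -0.68 (-0.82 to -0.54), and again the mimic library was the lowest. The gene overlaps Utp14b by 9777 bases and its counts have decimals, so its level is uncertain. Its relative Acsl4 had 39.25 TPM in the knockout, 51.39 TPM in the negative-control and 40.15 TPM in the mimic library. The mimic ratio of Acsl4 was -0.01 (-0.11 to 0.08) against the untransfected knockout and -0.37 (-0.46 to -0.28) against the negative control. The remaining members with a seed match stood higher, Lpin1 at -0.31 (-0.47 to -0.14) and Stard4 at -0.16 (-0.27 to -0.05).

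Pmvk (68603), which phosphorylates phosphomevalonate, and Fdps (110196), the farnesyl diphosphate synthase, have no seed match but were also called lower with the mimic. Pmvk had 30.91 TPM in the wild-type, 32.11 TPM in the knockout, 32.92 TPM in the negative-control and 21.77 TPM in the mimic library, a ratio of -0.60 (-0.86 to -0.34). Fdps, the most abundant transcript of the mevalonate steps, had 252.12, 222.58, 216.18 and 161.73 TPM in the same order and a ratio of -0.42 (-0.51 to -0.33). For both genes the 3 libraries without the mimic lay close together and the mimic library lay below. Hmgcs1 stood at -0.34 (-0.41 to -0.28).

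From the squalene synthase onward, Fdft1, Cyp51, Tm7sf2 and Msmo1 were called lower. Tm7sf2 had a ratio of -0.49 (-0.74 to -0.25) and Cyp51, the lanosterol demethylase, of -0.44 (-0.52 to -0.37). Cyp51 had 104.64, 84.98, 87.83 and 64.94 TPM from wild type to mimic. Fdft1, the squalene synthase, stood at -0.36 (-0.46 to -0.26) and Msmo1 at -0.34 (-0.41 to -0.26). The gene of Fdft1 overlaps that of Ctsb by 774 bases, that of Lpin1 overlaps Ntsr2 by 461 and that of Srebf1 overlaps Rai1 by 114, and the sources used here do not state whether counting used strand. Sqle, the squalene epoxidase, and Lss had smaller ratios of -0.20 (-0.29 to -0.12) and -0.25 (-0.35 to -0.14). Among the other later enzymes the intervals of Nsdhl, Hsd17b7 and Ebp held 0, and Sc5d was above 0 at 0.15 (0.07 to 0.23).

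Regulators of the pathway showed no common direction with the mimic. Srebf2 (20788), the gene of the sterol-regulating SREBP, had 110.55 TPM in the wild-type, 93.15 TPM in the knockout, 92.45 TPM in the negative-control and 84.63 TPM in the mimic library, a ratio of -0.14 (-0.20 to -0.07). Srebf1 (20787) had 60.54, 49.47, 59.29 and 56.28 TPM in that order and a ratio of -0.09 (-0.17 to -0.0033). Insig1 (231070), itself a known target of SREBP and the most abundant regulator, had 131.58 TPM in the wild-type and 116.30, 114.16 and 116.08 TPM in the knockout libraries, with a ratio of 0.02 (-0.06 to 0.09). Insig2 and Scap stood at 0.07 (-0.06 to 0.20) and 0.11 (0.01 to 0.21). Over the 5 regulators the median was 0.02.

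**Figure D2:**
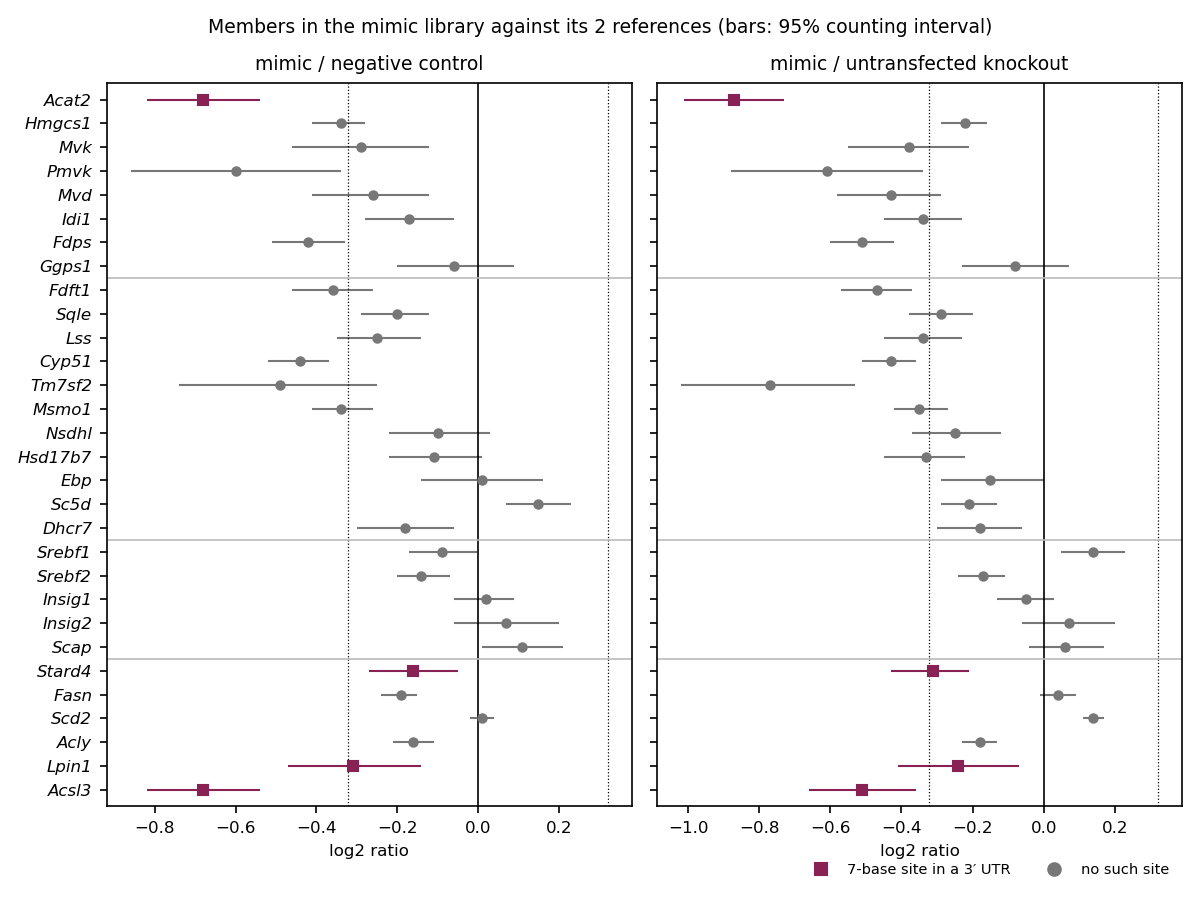
Each row is a member, grouped from top to bottom by mevalonate steps, later sterol steps, regulators and lipid genes; points give the log2 ratio of the mimic library to the negative-control library (left) and to the untransfected knockout library (right), bars the 95% counting interval, dotted lines the 25% limit, and squares genes with the 7-base match. Acat2 lies lowest in the right panel, at -0.87, and shares the lowest value of the left panel, -0.68, with Acsl3.

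The untransfected knockout library gave a second reference for the same mimic library. Since the mimic library enters both comparisons, values are given side by side. Against this reference all 19 sterol enzymes were below 0, with a median of -0.34, and 25 of 30 members were, with a median of -0.27 beside 0.0017 over 12536 genes. Of the members 13 were called lower, against 6.02% of measured genes, and 0 higher, against 4.35%. At 2-fold 0 were called, against 0.734%. The 13 were Acat2, Mvk, Pmvk, Mvd, Idi1, Fdps, Fdft1, Lss, Cyp51, Tm7sf2, Msmo1, Hsd17b7 and Acsl3. The 10 proliferation genes were all below 0 here, with a median of -0.29, and 9 of 10 were with the negative control as reference.

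With the untransfected reference Acat2 stood at -0.87 (-1.01 to -0.73), Tm7sf2 at -0.77 (-1.02 to -0.53), Pmvk at -0.61 (-0.88 to -0.34) and Fdps at -0.51 (-0.60 to -0.42). Acsl3 stood at -0.51 (-0.66 to -0.36). Mvd, the decarboxylase that forms isopentenyl diphosphate, had -0.43 (-0.58 to -0.29) and Idi1, the isomerase of that product, -0.34 (-0.45 to -0.23), against -0.26 (-0.41 to -0.12) and -0.17 (-0.28 to -0.06) with the negative control as reference. Ggps1, which makes the geranylgeranyl donor and leads away from sterols, was near 0 with either reference, at -0.06 (-0.20 to 0.09) and -0.08 (-0.23 to 0.07). Among the lipid genes Fasn and Scd2 had higher ratios with the untransfected reference. Fasn had -0.19 (-0.24 to -0.15) against the negative control and 0.04 (-0.01 to 0.09) against the untransfected library, and Scd2 0.01 (-0.02 to 0.04) and 0.14 (0.11 to 0.17).

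**Figure D3:**
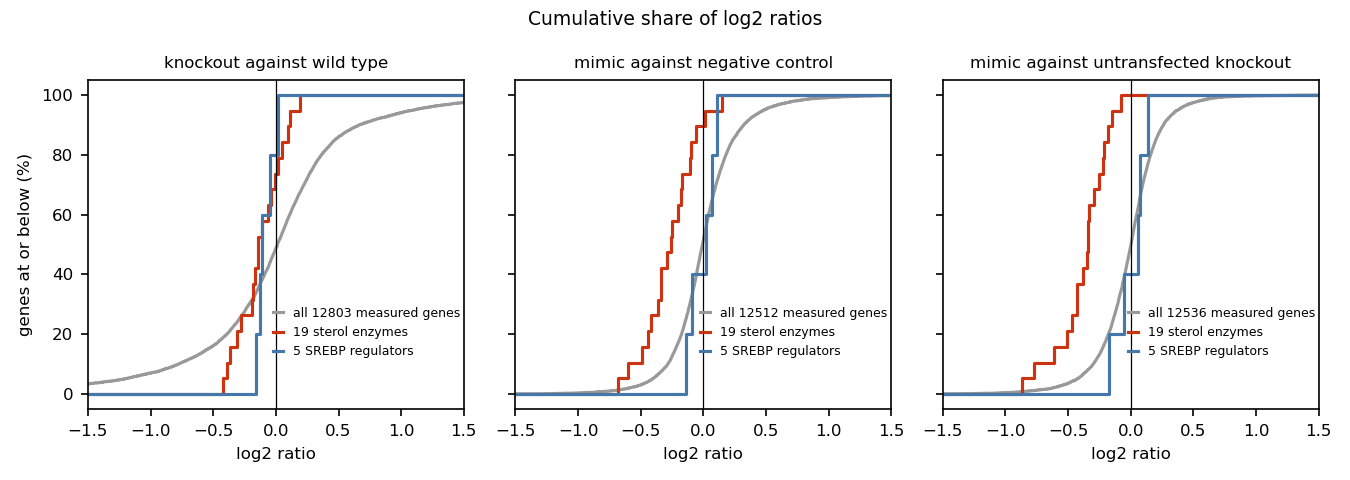
Lines give the cumulative share (%) of genes at or below each log2 ratio for all measured genes, the 19 sterol enzymes and the 5 regulators, in 3 comparisons with 1 library per group. The line of the enzymes lies left of all genes in both mimic comparisons (medians -0.26 and -0.34), and that of the regulators lies near all genes (medians 0.02 and 0.06).

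Set against the wild type, the mimic library had a lower median of the members than the untransfected knockout library, -0.44 and -0.14, with the wild-type library shared by both. With the mimic 29 of 30 members were below 0, the median of 12793 genes was 0.02, and 17 were called lower, against 21.3% of all genes, and 0 higher, against 20.4%. At 2-fold 2 were called, Tm7sf2 at -1.19 (-1.42 to -0.97) and Lpin1 at -1.08 (-1.23 to -0.93), against 13.5% of all genes. Acat2 stood at -0.81 (-0.96 to -0.67) and Lss at -0.71 (-0.81 to -0.61), while Srebf1 and Stard4 were both at -0.02. Insig2, at 0.10 (-0.04 to 0.23), was the only member above 0. Knockout against wild type and mimic against negative control share no library: of 23 members below 0 in the former 19 were below 0 in the latter (82.6%), near the 80.0% of all 30 members that were below 0 there. Of the 5 members called lower in the knockout, Tm7sf2 and Hmgcs1 were also called lower with the mimic and 0 were called higher, beside 9 of all 30 members called lower. Of 2437 genes called lower in the knockout library 157 were called lower with the mimic and 322 higher.

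**Figure D4:**
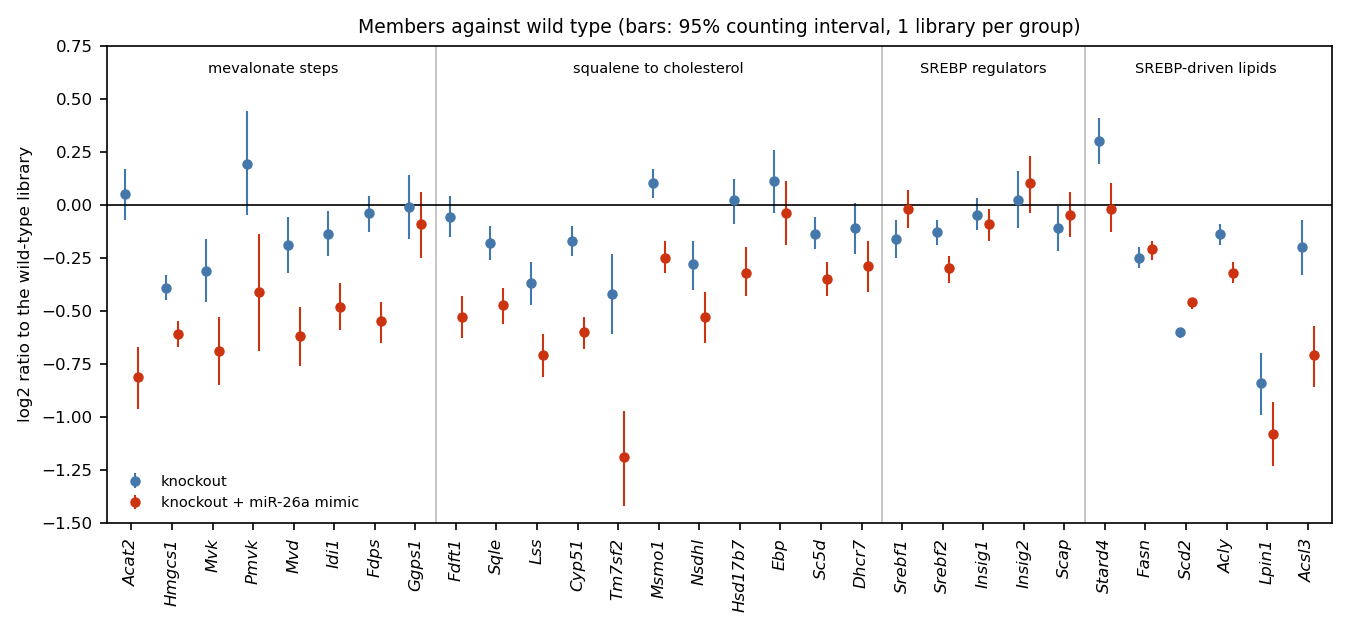
For each member the log2 ratio to the wild-type library is plotted for the untransfected knockout (blue) and the knockout with mimic (red), with 95% counting intervals. Most red points of the sterol enzymes lie below the blue ones, as for Acat2 (0.05 and -0.81), while Insig1 (-0.05 and -0.09) and Fasn (-0.25 and -0.21) hardly differ.

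Genes of the same pathways outside the 30 were counted from 3 further lists. Of 22 measured genes of other sterol and lipid synthesis steps 18 were below 0 in the mimic to negative-control comparison, with a median of -0.11. Of the 22 genes 2 were called lower, beside 5.6% of all genes, and 0 higher, beside 7.38%. With the untransfected reference 13 of 22 were below 0, with a median of -0.01, and 1 was called lower, beside 6.02% of all genes. Acss2, which makes acetyl-CoA from acetate, was called lower in both, with 25.31 TPM in the wild-type, 16.14 TPM in the knockout, 14.25 TPM in the negative-control and 9.89 TPM in the mimic library, and ratios of -0.53 (-0.77 to -0.30) and -0.75 (-0.99 to -0.52). Between the genotypes 7 of these 22 genes were called lower and 2 higher, beside 20.9% and 20.7% of all genes. Among them were the elongase Elovl6 at -0.87 (-1.03 to -0.73) and the thioesterase Acot7 at 0.78 (0.62 to 0.94).

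Of 14 genes of sterol efflux and storage, several of them targets of the sterol sensor LXR, 5 were called higher and 2 lower in the knockout library against wild type, beside 20.7% and 20.9% of all genes, with a median of 0.24. In the mimic to negative-control comparison 9 of 14 were below 0 and the median was -0.09. In each direction 1 was called there, beside 5.6% of all genes lower and 7.38% higher. Against the untransfected library 7 of 14 were below 0, with a median of 0.01, 3 called higher and 1 lower, beside 4.35% and 6.02% of all genes. Nceh1, a cholesteryl ester hydrolase, stood at 55.85 TPM without and 110.70 TPM with the deletion, at a ratio of 1.11 (1.04 to 1.19), and Pltp, a phospholipid transfer protein, had 236.39 and 99.87 TPM, a ratio of -1.11 (-1.20 to -1.02). Ch25h, the enzyme that makes 25-hydroxycholesterol, had 20.08 TPM in the wild-type, 39.47 TPM in the knockout, 45.90 TPM in the negative-control and 63.10 TPM in the mimic library. Its mimic ratios were 0.45 (0.29 to 0.62) against the negative control and 0.63 (0.45 to 0.80) against the untransfected library. The exporters Abca1 and Abcg1 were higher in the negative-control than in the untransfected library, at 0.53 (0.48 to 0.58) and 0.57 (0.48 to 0.66). Both were also higher in the mimic than in the untransfected library, at 0.33 (0.28 to 0.38) and 0.41 (0.32 to 0.51). Of 6 genes that degrade sterol enzymes in the endoplasmic reticulum 0 were called in either direction in both mimic comparisons. Of all genes 4.35% to 7.38% were called per direction there, and the 6 had medians of 0.06 and 0.11.

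Promoters were read because most members were lower together with the mimic. RefSeq promoters (GRCm38.p6, from 250 bases before to 50 after each start) were found for 25 members and not for Fdps, Fdft1, Sqle, Stard4 and Scd2. On either strand, CCAAT, the letters bound by NF-Y, a partner of SREBP, occurs in a promoter of 22 of the 25 members (88.0%) and of 42.6% of 12953 table genes. GGGCGG, the letters bound by Sp1, occurs in 21 (84.0%) and in 62.4%. The letters TCACNCCAC of a sterol regulatory element occur in 1 member, Hmgcs1, and in 1.44% of table genes, and the looser CACNCCAC, which that motif contains, in Acat2, Hmgcs1 and Insig1 and in 7.67%. A match is a description of letters, not of binding, and genes with several promoters have more chances to hold one.

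Those 3 promoters are shown, 5′ to 3′ on the strand of the gene, with both element forms and CCAAT, read on either strand, in capitals. Hmgcs1 holds the element at position -137 from the start and 4 CCAAT matches. Acat2 holds 2 of the looser matches and no CCAAT, and Insig1 1 of each. They lie at chr13:119690101-119690400 (plus strand), chr17:12960676-12960975 (minus strand) and chr5:28071162-28071461 (plus strand).
Hmgcs1 promoter: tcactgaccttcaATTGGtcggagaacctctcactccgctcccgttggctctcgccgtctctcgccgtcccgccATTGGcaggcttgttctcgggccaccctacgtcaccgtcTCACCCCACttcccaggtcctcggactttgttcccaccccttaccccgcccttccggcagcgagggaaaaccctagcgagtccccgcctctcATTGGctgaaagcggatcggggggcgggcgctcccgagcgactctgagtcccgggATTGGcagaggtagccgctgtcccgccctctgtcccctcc
Acat2 promoter: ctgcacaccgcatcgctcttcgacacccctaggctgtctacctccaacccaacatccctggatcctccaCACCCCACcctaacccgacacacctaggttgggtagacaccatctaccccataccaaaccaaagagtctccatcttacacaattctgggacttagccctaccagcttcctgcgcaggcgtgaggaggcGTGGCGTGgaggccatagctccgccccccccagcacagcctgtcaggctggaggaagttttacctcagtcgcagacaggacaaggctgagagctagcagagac
Insig1 promoter: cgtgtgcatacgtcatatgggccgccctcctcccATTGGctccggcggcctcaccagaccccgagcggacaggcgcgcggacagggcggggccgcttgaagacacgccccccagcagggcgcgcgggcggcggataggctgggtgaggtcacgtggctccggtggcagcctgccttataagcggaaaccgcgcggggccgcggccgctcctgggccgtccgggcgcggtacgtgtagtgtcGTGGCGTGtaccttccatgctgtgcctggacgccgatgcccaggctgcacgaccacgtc
These 3 promoters went with different mimic to negative-control ratios of -0.34 for Hmgcs1, -0.68 for Acat2 and 0.02 for Insig1.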

How the data were processed

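RNA of 4 libraries was sequenced, 1 per group, grouped by the labels. Tools named in the submitters' processing notes are FastQC, HISAT and Bowtie2, and builds GRCm38.p6 and mm10, with neither version nor role. No source used here states the counting tool, annotation or strand setting. Per the file headers, the authors deposited estimated counts not scaled by library size, which were the basis of every ratio. The authors also deposited TPM, printed as levels, and FPKM and a signal of size-factor normalized counts, neither of which was used. A second deposited table of the authors' own comparisons was not used. Spreadsheet dates in place of 26 symbols were restored through the Entrez identifier.

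Counts were scaled with edgeR TMM factors and a prior of 1 count was added for log2 ratios. A gene was measured with at least 1 CPM in either library. Calls needed a difference of 25% (or 2-fold) and a 95% interval excluding 0, taken from the exact binomial (Clopper-Pearson) limits of the share of 1 library in both libraries' counts. For intervals counts were rounded. The procedure was tested on simulated data that held counting error only, so that test cannot speak to the spread between cultures. All 30 members are named or counted. Full values were given for the 4 largest ratios of each comparison, the most abundant member of each role and members with a seed match. Genes of other lists were named among the 3 largest ratios of a list with at least 5 TPM. Scd1, Acat3 and Tcp1 were added as copies or neighbours. The members and lists were chosen with earlier results of these data known. Promoters of Acat2 and Insig1 were chosen for printing after the matches were seen. edgeR 4.0.16 and DESeq2 1.42.0 ran under R 4.3.3. Other steps used scipy 1.17.1, pandas 2.3.3 and numpy 2.4.6 under Python 3.11.15, and matplotlib 3.10.9 drew the plots.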

Additional observations from a re-analysis of the deposited data

How the results depend on the processing

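Each median and each count of called members was recomputed with DESeq2 size factors, plain total counts, deposited TPM (adding 0.01), a 5 CPM minimum, no minimum, and prior counts of 0.25 and 5. A set without the 4 members whose counts have decimals (Acat2, Idi1, Scd2, Acsl3) was added after the data were seen. The 5 CPM minimum and no minimum could not change the members' values, because the lowest member level, Pmvk in the mimic library, was 10.8 CPM. Prior counts of 0.25 and 5 could hardly change them, because every member had 200 or more counts. For the members, only the scalings and the set without decimals were therefore a test. Between knockout and wild type, deposited TPM gave a median of -0.26 and 10 members called lower, and total counts gave 1 member called higher. The median of all genes on deposited TPM was itself -0.11, and the members' distance from it was -0.15, as in the main setting. Shares of all genes called were not recomputed under the other settings, so the member counts given here have no such background. Between negative control and untransfected knockout, deposited TPM gave 0 members called lower. Under the scalings and in the set without decimals, all other medians moved by less than the typical counting interval. All other counts stayed within 1.5 times there. In the mimic to negative-control comparison 7 to 11 members were called lower, and in that to the untransfected knockout 10 to 14. The distance of the members' median from that of all genes was between -0.17 and -0.19 in the former. Of the 150 single ratios, 38 left their counting interval on deposited TPM and 3 on total counts. The looser element letters were found in 3 members in place of 1. With 1 library per group no replicate could be left out. No paired analysis was possible because no group has a replicate. Counts of 200 or more per member keep counting error small, and the spread between cultures is unknown.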

Other observations

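Nr1h3, the gene of an LXR sensor, had 24.33 TPM in the wild-type, 11.05 TPM in the knockout, 13.07 TPM in the negative-control and 8.92 TPM in the mimic library. Its mimic ratio was -0.58 (-0.91 to -0.27) with the negative control as reference and -0.37 (-0.71 to -0.03) with the untransfected knockout. The macrophage markers had medians of -0.04 and -0.01 in these 2 comparisons, and their part in the ratios was not tested.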
